A study of Mus musculus with 7 samples.

Results

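Srebf1, Mlxipl, Thrsp, Nr1h3 and Insig2 encode regulators that set how much fatty acid the liver makes. They are 5 of the 32451 genes on the array, matched through the RefSeq accession that the scanner files give for each probe. The choice was by name and not by a rule on measured values, but earlier results of these data were known. Together they have 8 probes. Liver RNA came from male C57/BJ mice that ate a high-fat diet (HFD, product D12331 of ResearchDiets, 3 samples) or a control chow (Provimi Kliba, 4 samples) for 20 weeks from 6 weeks of age, so all were 26 weeks old. No mutation or drug is named for either group, and each sample was hybridised to its own 1-colour Agilent array. The diets came from different suppliers, so fat content and other ingredients cannot be told apart. The labels do not say whether a sample is a single animal, and p-values below measure the spread between these samples.

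SREBP-1, the product of Srebf1, is made as a precursor in the endoplasmic reticulum and is cut in the Golgi to release a transcription factor for fatty acid synthesis genes. INSIG proteins hold the precursor back, insulin raises its output in the liver, and the liver X receptor alpha (LXR alpha, from Nr1h3) switches on the Srebf1 gene when oxysterols are present. ChREBP, the product of Mlxipl, answers to glucose metabolites and acts with its partner Mlx, and Thrsp (Spot 14) is a small nuclear protein that rises with lipogenesis and is itself a target of these factors. In obese rodents lipogenic regulators are widely studied as drivers of liver fat.

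Promoter letters are shown for Thrsp and Srebf1 because these were the 2 of 5 genes with chow and HFD values. Both sequences come from RefSeq (GRCm38.p6), read 5′ to 3′ on the minus strand, and run from 250 bases before the transcription start to 50 after it. Capitals mark CCAAT boxes (CCAAT, bound by NF-Y), GC boxes (GGGCGG, bound by Sp1) and E-boxes (CANNTG), on either strand. CANNTG is a general form and does not single out sites of SREBP or ChREBP. For Srebf1 the most downstream of its 3 RefSeq starts is shown. In mouse, SREBP-1a and SREBP-1c have separate first exons, and that of SREBP-1c lies downstream. The Thrsp window lies at chr7:97417501-97417800 and the Srebf1 window at chr11:60210422-60210721.
Thrsp: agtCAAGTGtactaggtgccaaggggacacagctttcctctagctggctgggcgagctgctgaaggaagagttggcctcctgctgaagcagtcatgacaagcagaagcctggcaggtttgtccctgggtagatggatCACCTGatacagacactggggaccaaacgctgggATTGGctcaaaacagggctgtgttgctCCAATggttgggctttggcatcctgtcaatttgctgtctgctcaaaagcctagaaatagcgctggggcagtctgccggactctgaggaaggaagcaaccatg
Srebf1: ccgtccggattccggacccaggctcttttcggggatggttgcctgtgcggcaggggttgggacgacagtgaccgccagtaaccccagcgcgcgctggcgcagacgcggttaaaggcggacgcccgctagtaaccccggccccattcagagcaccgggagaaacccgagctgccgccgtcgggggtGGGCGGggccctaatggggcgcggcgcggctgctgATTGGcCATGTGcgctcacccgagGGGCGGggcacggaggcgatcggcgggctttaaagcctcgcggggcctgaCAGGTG

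Thrsp held 2 CCAAT boxes, whose first bases lay 79 and 52 bases before the start, and 2 E-boxes, 247 and 113 bases before it. Srebf1 held a CCAAT box and an E-box next to each other, 30 and 24 bases before this start, with GC boxes 65 and 6 bases before it and a second E-box 45 bases after it. Of 32851 mouse promoter windows of this length, 37.4% held a CCAAT box, 35.7% a GC box and 72.3% an E-box, so these letters are common. All 5 genes matched the promoter table, with 11 starts between them. The sterol response element was searched only as the exact letters TCACNCCAC, present in 1.24% of windows. They were found at 1 of the 11 starts, the downstream start of Mlxipl, 136 bases before it. Elements with other letters, at Srebf1 or elsewhere, would be missed. The palindromic E-box CACGTG, which is also a CANNTG match and is in 7.15% of windows, was found at the upstream start of Mlxipl, 98 bases before it. Neither the carbohydrate response element, searched as a pair of CACGTG motifs with 5 bases between them (in 0 of 32851 windows), nor the LXR element, searched as a direct repeat of AGGTCA with 4 bases between the copies (in 0.0152% of windows), was found at any of the 11 starts. Both were searched as exact letters that almost no window holds, so elements with other letters would be missed. Their absence at these starts is therefore not informative. All matches here are of letters in short windows and say nothing of binding.

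**Figure D1:**
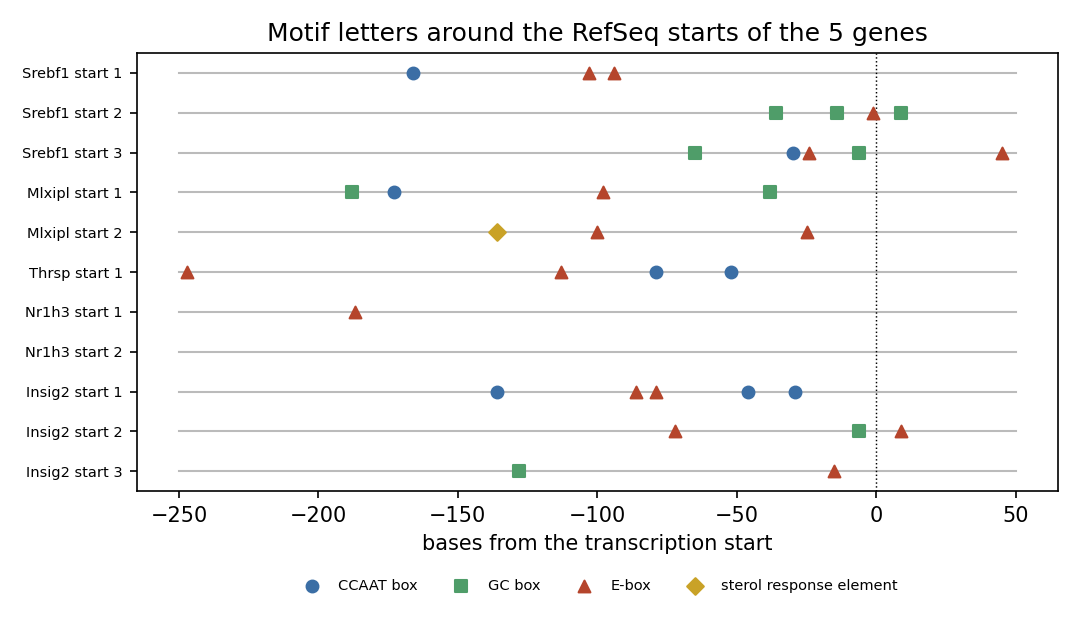
Motif letters at the 11 RefSeq starts of the 5 genes; the x axis is the distance of a motif's first base from the transcription start in bases, and each grey line is a window from 250 bases before to 50 after the start. Insig2 start 1 holds 3 CCAAT boxes and Thrsp 2. The sterol response element, searched only as the exact letters TCACNCCAC, appears at Mlxipl start 2 only.

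Every array has its deposited scanner file, and a separate table gives log2 values for 1615 probes (1488 genes). Each HFD file followed its own table column with a Pearson r of at least 0.9999 across those probes, which are not independent replicates. The 4 files labelled chow followed theirs with r of 0.580 to 0.589 and no column with r above 0.628. Which of these sources holds the chow livers is not settled by the data. The comparison uses the table's columns labelled chow, and every fold below depends on that label being right. The table holds probes picked by diet difference: HFD and chow values were apart at all 1615, and the smallest difference was 1.26-fold. Direction, separation and p-values of listed genes are therefore no independent evidence, and a gene outside the table has no usable chow value. All HFD arrays shared a scan day, while that of the chow columns is unknown, so scan day and diet cannot be told apart. On the HFD arrays, 10 of 10 hepatocyte markers, albumin among them, were well above background on all 3. So were 10 of 10 stellate cell, 9 of 9 macrophage and 6 of 6 endothelial markers, so this does not single out hepatocytes. Precision is limited by having 7 arrays.

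Srebf1 and Thrsp were in the table and were higher in HFD livers, Srebf1 3.22-fold and Thrsp 5.27-fold. Mlxipl, Nr1h3 and Insig2 were not in it. Both listed genes passed an adjusted p of 0.05 in the limma linear model, with Benjamini-Hochberg adjustment over all 32451 genes, where 1.05% of genes passed as higher. With 2 of 5 genes passing, and with listing itself fixed by the selection (4.59% of genes are listed), the count is given as a description.

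Srebf1, measured by probe A_55_P2002557, had log2 values of 10.56, 10.56 and 10.36 in HFD replicates 1, 2 and 3, against 9.15, 8.93, 8.46 and 8.69 in chow replicates 1 to 4. The lowest HFD value lay 1.21 above the highest chow value, a gap wider than the whole range of either group. The means were 10.49 ± 0.12 (SD, n = 3) in HFD and 8.81 ± 0.30 (SD, n = 4) in chow, a log2 fold change of 1.69 ± 0.17 (SE; limma adjusted p = 0.0219). The probe is annotated to a single Srebf1 transcript, and whether it separates SREBP-1a from SREBP-1c is not given in the sources used here. The measurement is of RNA, so it does not speak to the cut, active protein.

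Thrsp, measured by probe A_55_P2018666, had log2 values of 15.75, 15.68 and 15.90 in HFD replicates 1, 2 and 3. In chow replicates 1 to 4 it had 13.90, 13.70, 13.09 and 12.83. The groups were separated by 1.78, and chow livers varied far more among themselves than HFD livers did. The means were 15.78 ± 0.11 (SD, n = 3) in HFD and 13.38 ± 0.50 (SD, n = 4) in chow, a log2 fold change of 2.40 ± 0.27 (SE; limma adjusted p = 0.0234). By fold, Thrsp was number 49 and Srebf1 number 118 of the 801 genes that the table lists as higher, whose median log2 fold change was 0.82. The median over all 1488 listed genes was 0.44.

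**Figure D2:**
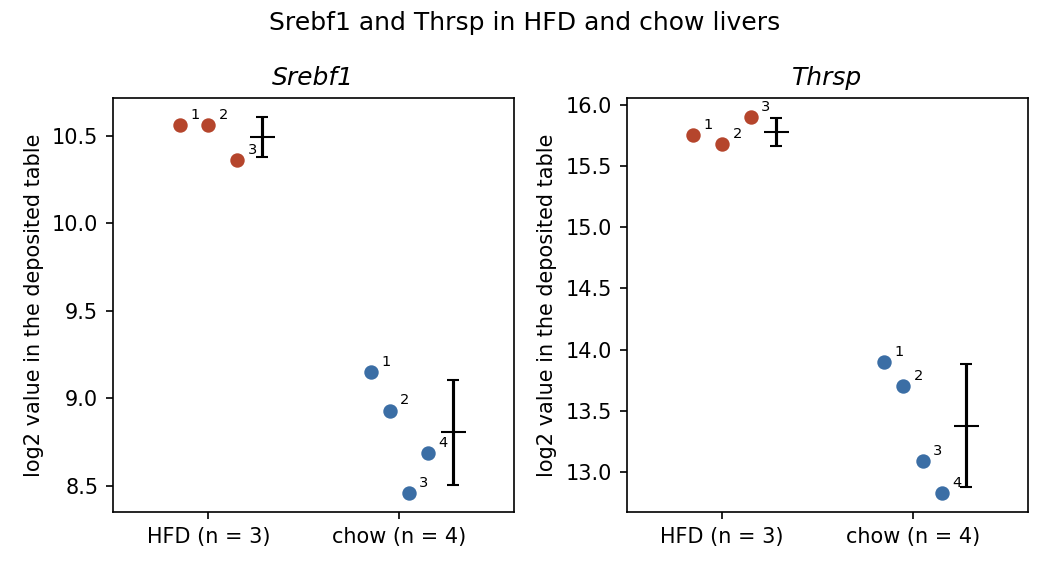
Log2 values of Srebf1 and Thrsp in the deposited table (y axis, not starting at 0); points are samples with their replicate number, and the bar beside each group is the mean ± SD. The 3 HFD values lie above all 4 chow values in each panel, and the chow values of Thrsp spread from 12.83 to 13.90.

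The calls were not stable to leaving out a sample. Each gene kept its call without HFD replicate 1, HFD replicate 3 or chow replicate 2, and lost it without any of the other 4 samples, with limma adjusted p from 0.0571 (without chow replicate 1) to 0.103 for Srebf1 and to 0.105 for Thrsp (without HFD replicate 2). The fold itself moved little, between 2.97 and 3.48 for Srebf1 and between 4.64 and 5.94 for Thrsp.

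The fold of Thrsp was larger than that of Srebf1. The per-sample difference of their log2 values was 5.19, 5.12 and 5.54 in HFD replicates 1 to 3, against 4.75, 4.77, 4.63 and 4.14 in chow replicates 1 to 4. Means were 5.28 ± 0.23 (SD, n = 3) in HFD and 4.57 ± 0.29 (SD, n = 4) in chow. The gap widened by 0.71 on the log2 scale, or 1.64-fold, which exceeds the SD of either group. It was chosen after the values were seen and no test was run. When each group's mean was subtracted, Thrsp and Srebf1 had a Pearson r of 0.747 over the 7 columns. In chow, replicates 1 and 2 were the higher samples for each gene and replicates 3 and 4 the lower. On HFD the genes ran apart, as replicate 3 was lowest for Srebf1 (-0.13 from the HFD mean) and highest for Thrsp (0.12).

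The named genes whose sample-to-sample pattern was most like Srebf1, by the same within-group r over 7 columns and among 1166 named genes, were Pparg (r = 0.958), Abcc6 (r = 0.955) and Dclk3 (r = 0.951). For Thrsp they were Abcg5 (r = 0.974), Arr3 (r = 0.962) and Mast1 (r = 0.923). The adipogenic nuclear receptor gene Pparg had 12.02, 11.97 and 11.87 in HFD replicates 1 to 3 and 10.82, 10.76, 10.49 and 10.53 in chow replicates 1 to 4. Like Srebf1 it was lowest in HFD replicate 3 and chow replicate 3. Dclk3, Arr3 and Mast1 had negative log2 fold changes (-0.90, -0.53 and -1.20), while those of Pparg, Abcc6 and Abcg5 were positive (1.30, 0.60 and 0.87). Thrsp ranked number 57 in likeness to Srebf1. These r values have no test.

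Mlxipl, Nr1h3 and Insig2 can be described on the HFD arrays only. Their 6 probes were well above background on 3 of 3 HFD arrays. Levels are given as log2 of the background-subtracted signal minus the array's 75th percentile, so that 0 is the signal that 75% of spots do not exceed, and levels of different probes are not compared.

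Nr1h3, which encodes LXR alpha, was steady across the 3 HFD livers. Probe A_55_P2128597 read 3.86, 4.05 and 4.11 in HFD replicates 1 to 3, and probe A_66_P120249 read 4.33, 4.44 and 4.50. The means were 4.01 ± 0.13 and 4.42 ± 0.08 (SD, n = 3), and the highest array exceeded the lowest by 1.19-fold and 1.12-fold. The order of the arrays was the same for both probes.

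Mlxipl, which encodes ChREBP, gave different pictures by probe. Probe A_55_P2119957 read 4.72, 5.11 and 5.46 in HFD replicates 1 to 3, a mean of 5.10 ± 0.37 (SD, n = 3) with a 1.67-fold span. Probe A_55_P2045158 read 0.77, 0.78 and 0.82, a mean of 0.79 ± 0.02 (SD, n = 3) with a span of 1.03-fold. The files annotate both probes to the same transcript and do not say where in it each lies. The 1.67-fold spread between HFD livers therefore rests on 1 of 2 probes, and the cause of the disagreement was not tested.

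Insig2, whose product retains SREBP precursors in the endoplasmic reticulum and whose liver transcript is known to fall with insulin in mice, had the probe with the widest span. Probe A_51_P439452 read 4.90, 4.52 and 5.42 in HFD replicates 1 to 3, a mean of 4.95 ± 0.45 (SD, n = 3) and a 1.86-fold span. Probe A_55_P1957624, annotated to another transcript of the gene, read 3.15, 2.86 and 3.51, a mean of 3.17 ± 0.33 (SD, n = 3) and a 1.57-fold span. Both probes put HFD replicate 3 highest and HFD replicate 2 lowest. Srebf1 ran otherwise, with its lowest HFD value in replicate 3.

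**Figure D3:**
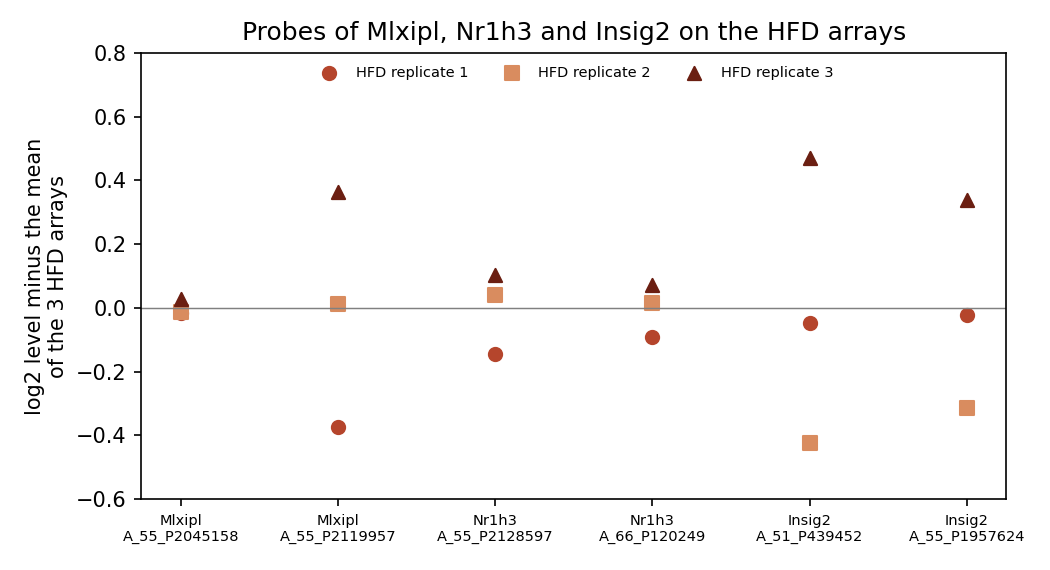
Levels of the 6 probes of Mlxipl, Nr1h3 and Insig2 on the HFD arrays, as log2 level minus the probe's mean over the 3 arrays (y axis), with 1 symbol per HFD replicate. HFD replicate 3 is highest at 6 of 6 probes; HFD replicate 2 is lowest at both Insig2 probes and HFD replicate 1 at the other 4.

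HFD replicate 3 was highest at 6 of 6 probes with the percentile and the median as scale and after quantile normalization, and at 5 of 6 after normexp background correction, the exception being the Mlxipl probe with a span of 1.03-fold. The array that was lowest followed the scaling: HFD replicate 1 was lowest at 4 of 6 probes with the percentile and at 2 of 6 after quantile normalization. At the Insig2 probes HFD replicate 2 was lowest under every one of these 4 scalings. The share of all probes that were highest on HFD replicate 3 was not counted. The order of the arrays is therefore not read as particular to these genes.

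The surrounding pathway was read through 8 gene lists with 118 genes on the array, of which 25 were in the table. Of the 118, 14 passed as higher in HFD (11.9%, against 1.05% of all genes) and 3 as lower (2.54%, against 0.832% of all genes). The median log2 fold change of the 25 listed genes was 0.92, against 0.44 over all listed genes. Whether these shares exceed chance was not tested, and the lists were drawn up with earlier results of these data known. The count of 14 needed every sample: it was 4, 1 and 10 without HFD replicates 1, 2 and 3, and 0, 2, 0 and 0 without chow replicates 1 to 4. The count of 3 was 1, 1 and 3 in the same HFD cases and 0, 1, 1 and 1 in the chow cases. Of the 19 passing genes, Srebf1 and Thrsp included, 0 kept the call in all 7 of these fits.

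The machinery that controls SREBP cleavage was absent from the table, which lists 4.59% of all genes. The machinery's list held 11 genes, among them Srebf2 (SREBP-2), Scap, which escorts SREBP to the Golgi, and Insig1, the sterol-induced partner of Insig2. All 11 were well above background on all 3 HFD arrays and 0 of 11 were listed, so none has a diet comparison here. With so small a share of all genes listed, this absence is not read as particular to the machinery. Of 11 genes of ChREBP partners and glucose sensing, 1 was listed. This was Gckr, a regulator of hepatic glucose use, which rose to 15.84 ± 0.03 (SD, n = 3) in HFD, against 15.32 ± 0.02 (SD, n = 4) in chow (1.43-fold, limma adjusted p = 0.0355). With centred columns its log2 fold change was 0.30 in place of 0.52 and the call was lost (limma adjusted p = 0.273), as it was without any 1 of the 7 samples. The ChREBP partners Mlx and Mlxip were not listed.

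Of 23 nuclear receptor and coactivator genes, 2 were listed. Pparg rose to 11.95 ± 0.08 (SD, n = 3) in HFD, against 10.65 ± 0.16 (SD, n = 4) in chow (2.47-fold, limma adjusted p = 0.0181). Nr5a2, which encodes the receptor LRH-1 of bile acid and lipid metabolism, fell to 6.74 ± 0.10 in HFD, against 7.37 ± 0.12 in chow, with a log2 fold change of -0.63 (limma adjusted p = 0.0430). Nr1h2, which encodes LXR beta, and Mid1ip1, the paralogue of Thrsp, were not listed.

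Fatty acid and triglyceride synthesis genes that SREBP-1c is known to drive supplied 13 of the 25 listed pathway genes, out of 20 on the array. All 13 were higher in HFD, also with centred or quantile-normalized columns, and 9 passed, which is 45.0% of the list. Of all genes on the array, 4.59% were listed and 1.05% passed as higher, and 801 of the 1488 listed genes were higher. The list was drawn up with earlier results of these data known, so these shares are given as a description. Their median log2 fold change was 1.30, with Pnpla5 fitted or at its bound, against 1.69 for Srebf1. Fasn, fatty acid synthase, had 11.39, 10.82 and 11.06 in HFD replicates 1 to 3 and 9.82, 9.25, 9.53 and 9.63 in chow replicates 1 to 4 (2.89-fold, limma adjusted p = 0.0251). Acly, which supplies cytosolic acetyl-CoA, rose 1.77-fold, Elovl6, an elongase, 1.89-fold and Acaca, acetyl-CoA carboxylase, 1.62-fold. Aacs, acetoacetyl-CoA synthetase, rose 3.97-fold. Pnpla3, a patatin-like lipase gene, rose by a fitted 4.09-fold, with 3 of 4 chow values below 4.93, the highest detection floor of the HFD arrays. All 4 chow values of Pnpla5 lay below that floor. Pnpla5 was at least 3.09-fold higher if that floor also holds for the chow columns, whose own floor is unknown. The desaturase gene Scd1 did not pass, at a log2 fold change of 1.57 ± 0.33 (SE; limma adjusted p = 0.0669), but did with quantile-normalized columns (limma adjusted p = 0.0353). Acaca lost its call with those columns (limma adjusted p = 0.0820) and with columns centred on their medians (limma adjusted p = 0.197). Elovl6 and Pnpla3 lost theirs with centred columns (limma adjusted p = 0.0541 and 0.0529).

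**Figure D4:**
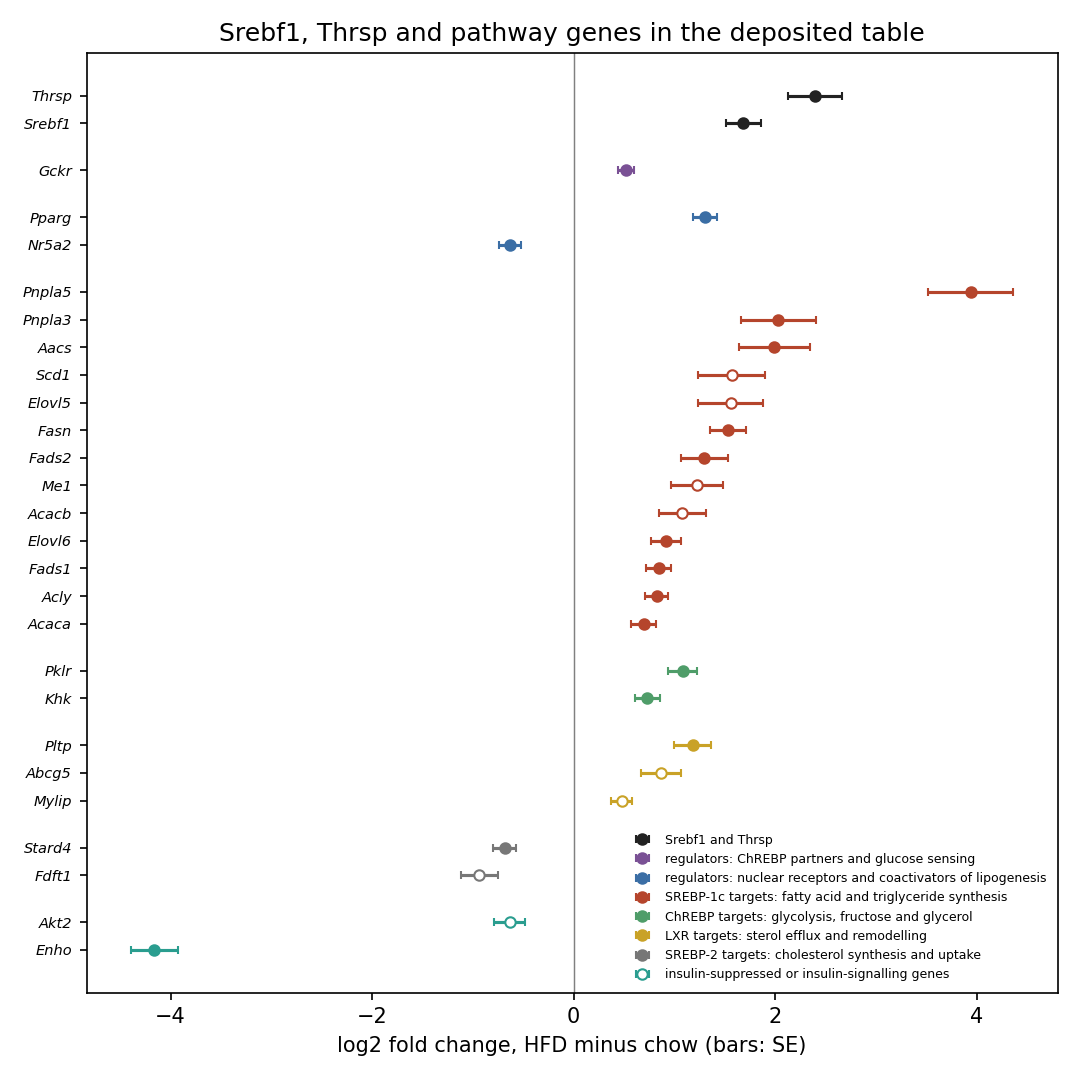
Log2 fold change, HFD minus chow, with its SE (x axis) for Srebf1, Thrsp and the 25 pathway genes of the deposited table, coloured by list. Filled points passed an adjusted p of 0.05 and open points did not. The point of Pnpla5 is the fitted value, and its chow values lay below the highest detection floor of the HFD arrays. Of the 27 genes drawn, 22 lie to the right of 0.

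Within groups, the targets shared no common pattern with Srebf1. Among the 13 listed targets, 9 had a negative within-group r with Srebf1 (median -0.297, from -0.814 for Elovl5 to 0.867 for Aacs), and 7 of 13 had a negative r with Thrsp (median -0.078, from -0.723 to 0.425). Chow replicate 3 had the lowest Srebf1 value of the 4 chow livers and the highest value of 8 of the 13 targets. Its Scd1 value was 16.75, against 15.40 to 15.68 in the other chow livers. On HFD, replicate 1 had the highest value of 10 of the 13 targets, while Srebf1 was level in HFD replicates 1 and 2. The column of HFD replicate 1 also had the highest median, 9.845 against 9.783 and 9.68 in HFD replicates 2 and 3. The shares of all listed genes that were highest in HFD replicate 1, or in chow replicate 3, were not counted. These orders are therefore not read as particular to the targets. These are descriptions over 7 columns that share arrays and scaling.

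**Figure D5:**
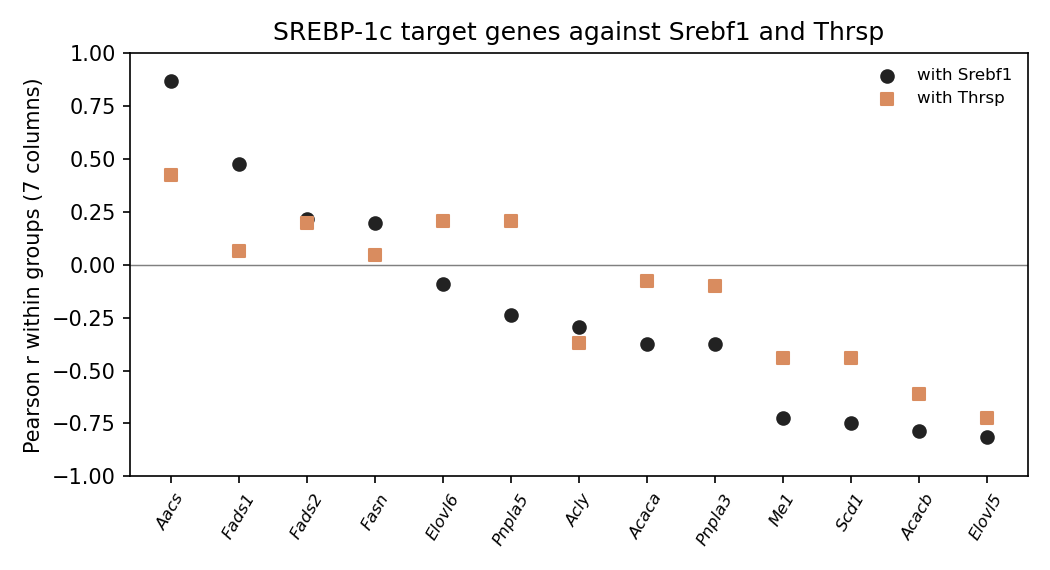
Pearson r (y axis) of each of 13 listed SREBP-1c target genes with Srebf1 (circles) and with Thrsp (squares) over the 7 columns, after subtracting each group's mean. Aacs has the highest r with Srebf1 (0.867), and Elovl5 the lowest (-0.814).

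Each pathway gene was put in a single list, so the lists do not separate targets that factors share. Of 11 genes in the ChREBP target list, 2 were in the table, which lists 4.59% of all genes. Both rose: Pklr, liver pyruvate kinase, 2.12-fold (limma adjusted p = 0.0275), and Khk, ketohexokinase, 1.66-fold (limma adjusted p = 0.0420). Khk lost its call with centred columns (limma adjusted p = 0.146). Targets of LXR were listed for 3 of 12. Pltp, phospholipid transfer protein, rose 2.27-fold (limma adjusted p = 0.0357). Abcg5, a sterol exporter, had 14.05, 14.10 and 14.08 in HFD replicates 1 to 3 and 13.54, 13.49, 12.98 and 12.81 in chow replicates 1 to 4 and did not pass (limma adjusted p = 0.0779). Abca1, another LXR target, was not listed.

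Of 20 cholesterol synthesis and uptake genes, which SREBP-2 drives, 2 were listed and 18 have no diet comparison. Fdft1, squalene synthase, did not pass, at a log2 value of -0.94 for HFD minus chow (limma adjusted p = 0.0570), with 1 HFD value below its array's detection floor. Stard4, a sterol carrier, fell to 7.59 ± 0.12 (SD, n = 3) in HFD, against 8.28 ± 0.13 (SD, n = 4) in chow (limma adjusted p = 0.0420). Of 10 genes in a list drawn up for insulin repression or insulin signalling, 2 were in the table. Enho, the adropin gene, fell to 10.03 ± 0.25 (SD, n = 3) in HFD, against 14.19 ± 0.39 (SD, n = 4) in chow. Whether insulin acts on Enho was not tested, and its fall is not read as a response to insulin. Igfbp1, Pck1 and Irs2 of that list were not listed.

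In bulk liver, fewer cells of a type and less RNA per cell cannot be told apart, and some regulators here are also expressed outside hepatocytes. Fat tissue expresses Srebf1, Thrsp and Pparg strongly. Of 10 adipocyte markers, Adipoq and Lep, which define fat cells, were not well above background on any HFD array, and 6 were on all 3. Cidec alone of the 10 was listed, and its level as a linear value ran from 19083 to 31652 in HFD and from 1520 to 4905 in chow. Of 9 macrophage markers, 3 (Itgam, Ccr2 and Gpnmb) were listed and passed as higher in HFD, as did 1.05% of all genes. The other 6 markers, the defining Adgre1 and Clec4f among them, have no diet comparison. The summed linear level of Itgam, Ccr2 and Gpnmb ran from 4372 to 5950 in HFD and from 2632 to 2726 in chow. This sum is mostly Itgam, with an HFD mean log2 value of 12.18, against 7.46 for Ccr2 and 7.48 for Gpnmb. Of 10 stellate cell markers, 3 were listed and 0 passed, where 4.59% of all genes were listed. Their summed linear level was 61749 to 94871 in HFD and 41979 to 49931 in chow. That sum is mostly Dcn, with an HFD mean log2 value of 16.03, against 12.83 for Col1a2 and 11.55 for Col3a1. Of 10 hepatocyte markers, 2 were listed, both lower, and Serpina1a passed, though it was higher by 0.15 (log2) with quantile-normalized columns. Serpina1a and Cps1, the listed pair, had a summed linear level of 249417 to 280155 in HFD and 360895 to 393461 in chow. The sum is mostly Serpina1a, with an HFD mean log2 value of 17.93, against 13.25 for Cps1. No cholangiocyte marker (of 6) or endothelial marker (of 6) was listed. The part of these markers in the values of Srebf1 and Thrsp was not tested.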

How the data were processed

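Cy3-labelled RNA (0.5 microgram per sample, per the labels' protocols) was read on 1-colour arrays. The scanner files hold deposited spot intensity values, background-subtracted by Feature Extraction 10.7.3.1 per the file headers (9.1 per the submitters' processing notes), with spot flags of other kinds per the file headers. The authors deposited a log2 table. The sources used here do not state how it was normalized or its probes chosen. Of 39429 probes, 27234 were named by accession (RefSeq, GRCm38.p6, names only). Flagged and control spots were left out and each gene's brightest probe was used. No spot was saturated, and 57.0% to 66.8% of spots per array were well above background.

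Limma (3.58.1, R 4.3.3) compared HFD with chow in the table. Unlisted genes were counted as not passing, adjustment covered 32451 genes, and variances were moderated toward a prior (0.0354, 2.10 degrees of freedom) from 19494 genes of the HFD arrays. The detection floor of an HFD array is the lowest table value among its probes well above background. The procedure was tested on simulated data. Genes and lists were chosen with earlier results of these data known. Named genes were the 5 regulators, 22 fixed pathway genes (some of them not reported here), up to 4 passing genes per list by fold (or the smallest p) and 3 genes most like each listed regulator. Genes named outside this rule were chosen after their values were seen. Same-numbered samples did not deviate together (r of -0.102, 0.138 and 0.0284), so numbers were not used as pairs.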

Additional observations from a re-analysis of the deposited data

Results flagged for a closer look

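In a group of 4 samples, a value was singled out when its gap to the nearest other exceeded Dixon's limit, which chance does for about 1 in 20 groups. Of 25 named genes tested in chow, 2 were singled out and neither is among the 5 regulators. Serpina1a read 18.38 in chow replicate 2 and 18.47 in each of the other 3 chow samples. Gpnmb read 3.45 in chow replicate 3 and 2.15 to 2.31 in the others, all below 4.93, the highest detection floor of the HFD arrays.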

How the results depend on the processing

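Srebf1 and Thrsp were higher in HFD under every alternative run, a direction that the selection of the table fixes. Their log2 fold changes ran from 1.57 to 1.80 and from 2.21 to 2.57 when each sample was left out. With the replicate block the values were 1.65 and 2.21 and the calls were lost (limma adjusted p = 0.221 for each), in a fit with fewer residual degrees of freedom where 0 genes passed and 1488 had an unadjusted p under 0.05. Without moderation they were 1.69 and 2.40 (limma adjusted p = 0.0840 and 0.0902). Relative to the median of listed genes, an alternative added after seeing the data, they were 1.25 and 1.96. Centring the table's columns on their medians gave 1.47 and 2.18, with a median over listed genes of 0.23 in place of 0.44. Of the 118 pathway genes, 14 passed as higher and 3 as lower. These counts were 9 and 5 with centred columns, 15 and 5 with quantile-normalized columns, 20 and 5 adjusted over the table alone, 16 and 5 with array weights, 0 and 0 with the replicate block and 1 and 0 without moderation. They lay between 0 and 10 and between 0 and 3 when each sample was left out, where the fit has fewer samples. Over all genes 342 passed as higher and 270 as lower (55.9% higher), against 186 and 605 (23.5%) with centred and 289 and 531 (35.2%) with quantile-normalized columns, 552 and 474 with the table's own prior, 720 and 635 with array weights, 801 and 687 adjusted over the table alone, and 6 and 1 without moderation. They were 0 and 0 without chow replicate 1 (1488 at an unadjusted p under 0.05) and 372 and 338 without HFD replicate 3. Serpina1a turned to 0.15 with quantile-normalized columns. The cause of these changes was not tested.

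HFD levels moved with the scaling. Relative to the array median they were 4.33 and 8.64 for the Mlxipl probes A_55_P2045158 and A_55_P2119957, 7.55 and 7.96 for the Nr1h3 probes A_55_P2128597 and A_66_P120249, and 8.49 and 6.71 for the Insig2 probes A_51_P439452 and A_55_P1957624. Normexp correction gave 0.93 for Mlxipl A_55_P2045158 and 4.32 and 4.72 for Nr1h3, and quantile normalization gave 0.89 for that Mlxipl probe and 4.52 for Nr1h3 A_66_P120249.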
